A study of Drosophila melanogaster with 8 samples.

Results

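The genes described here encode subunits of Integrator and comprised IntS1, IntS3, IntS4, IntS6, IntS8, IntS9, IntS10, IntS11, IntS12 and asun, which encodes the subunit IntS13. They were taken as a list of names and all 10 were matched by symbol among 17807 annotated genes. A locus was the annotated gene span plus 1 kb on each side, in the dm6 genome build of Drosophila melanogaster. The 10 loci held 35 of the 38545 regions obtained by merging the peaks of all libraries. Open chromatin was profiled on nuclei of dechorionated whole embryos with ATAC-seq, where the Tn5 transposase cuts accessible DNA and tags it with adapters. The 4 groups had 2 libraries each and were mutant embryos at 2.5 to 3 h, WT (wild-type) embryos at 2.5 to 3 h, mutant embryos at 1 to 1.5 h and WT embryos at 1 to 1.5 h. The age of 2.5 to 3 h is also called the later window and that of 1 to 1.5 h the earlier window. Every library title, WT or mutant, names mislocalized IntS11, and it was inferred that IntS11 is mislocalized in the mutant alone. The labels do not give the allele, its driver, the strain or the number of lines in these libraries, and they do not say whether replicates came from separate collections, so the spread between them may be technical.

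Integrator binds RNA polymerase II, and its endonuclease IntS11 cleaves nascent RNA, both at the ends of small nuclear RNA (snRNA) genes and near the promoters of protein-coding genes, where cleavage ends transcription early. IntS11 works in a cleavage module with its catalytically inactive relative IntS9 and with IntS4. Other subunits form the scaffold (IntS1 with IntS12 among them), a module that carries the phosphatase PP2A (IntS6 and IntS8), and an arm that includes IntS10 and IntS13. The early embryo lives on maternal RNA, and the later of the time windows overlaps the main wave of zygotic transcription.

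The data were peak positions only. A library held 15569 to 25201 peaks that covered 3712 to 8913 kb, and both mutant libraries of 1 to 1.5 h covered the least, 4486 and 3712 kb. The shortest peak listed was 100 to 156 bp long, depending on the library. Each library had a peak at 12 of 12 loci of zygotic patterning genes checked (eve, ftz, hb, Kr, kni, gt, tll, sna, twi, zen, dpp and sog). Over all annotated genes, 56.0% to 70.9% of loci had a peak, depending on the library. The value compared below is the covered length, the number of base pairs of a locus that lay in a peak. It is called lower or higher when the libraries of the groups compared did not overlap. With 2 against 2 libraries an exact permutation test cannot give p below 0.333, so the calls are set beside the percentage of all genes with the same call. The absence of a peak is not evidence of closed chromatin, and fewer nuclei with an open site cannot be told apart from less opening in each nucleus.

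**Figure D1:**
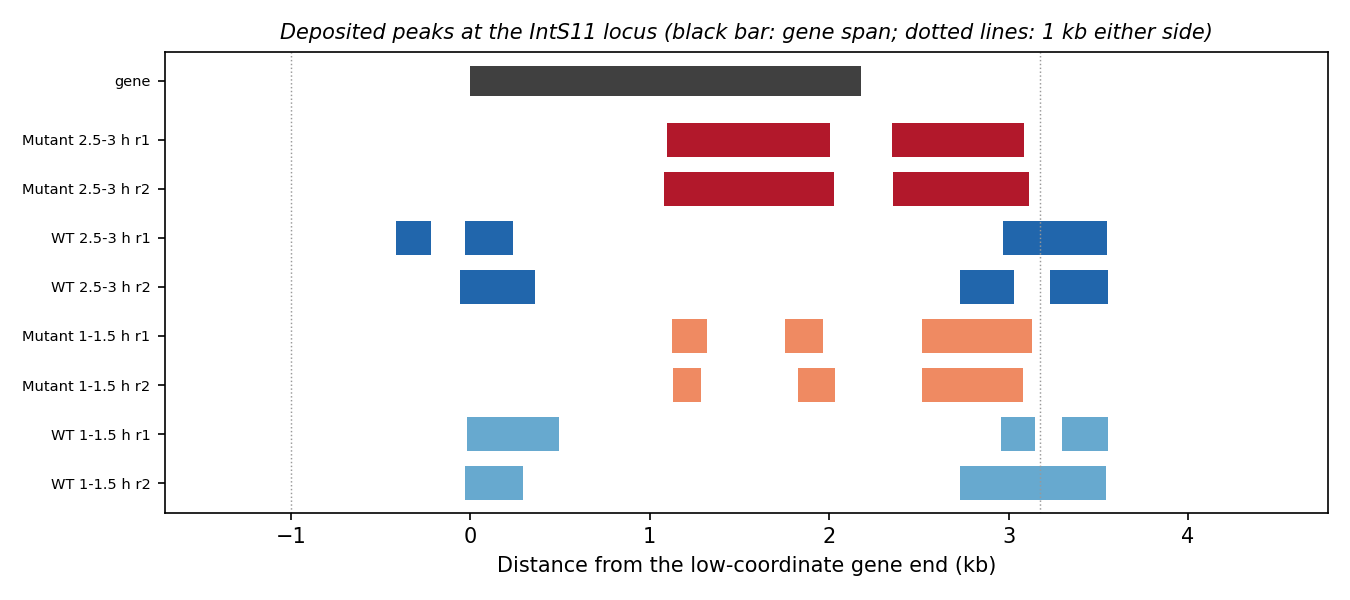
Peaks of the 8 libraries at the IntS11 locus, by distance in kb from the gene end with the lower coordinate. Each row is a library (r1 and r2 are replicates), the black bar is the gene and the dotted lines stand 1 kb outside it. The peaks inside the gene toward its high-coordinate end are those of the 4 mutant libraries, and the WT libraries have their peak at the gene's low end.

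IntS11 (gene 43506, 3R, 29745337 to 29747513) is the altered gene, and its peaks differed between the genotypes in place as well as in length. In the later window its locus was covered over 1643 and 1709 bp in the mutant libraries, against 673 and 720 bp in the WT libraries. In the earlier window the mutant libraries had 1023 and 929 bp, against 705 and 769 bp in WT. The mutant libraries were therefore above the WT libraries in both windows. In the share of its locus that was covered, IntS11 stood above 98.0% of protein-coding genes in mutant embryos of 2.5 to 3 h, against 70.4% in WT embryos of that age.

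Few positions were shared. At 2.5 to 3 h, 1283 bp of the locus lay in a peak in both mutant libraries and in neither WT library, 269 bp did so in both WT libraries and in neither mutant library, and 65 bp was called in all 4. The corresponding lengths in the earlier window were 507, 328 and 124 bp. A mutant-only region lay 1081 to 2034 bp from the low-coordinate end of the 2177 bp gene, where WT had no peak. There each mutant library of the later window had a single peak, of 907 or 947 bp. In the same stretch each mutant library of the earlier window had a pair of peaks, a first of 196 or 156 bp and a further one of 210 or 207 bp. WT had its own peak at the low-coordinate end, overlapping the antisense gene asRNA:CR46109, with widths of 269 and 418 bp in the later and 514 and 323 bp in the earlier window. Every library also had peaks in a region that overlaps the neighbour ATPsyngamma, part of them inside the locus. Their full lengths were 736 and 762 bp in mutant embryos of 2.5 to 3 h, against 579 and 624 bp in WT, and 617 and 566 bp in mutant embryos of 1 to 1.5 h, against 447 and 813 bp in WT. The higher total of the earlier window depended on how far the locus was drawn. Within the gene span alone the mutant minus WT difference was -11.5 bp there, and the groups overlapped. With 2 kb on each side it was -397 bp, and both mutant libraries lay below both WT libraries. The altered allele is not described in the labels, and how its sequence maps to dm6 was not tested. IntS11 is left out of every count of subunit genes below.

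**Figure D2:**
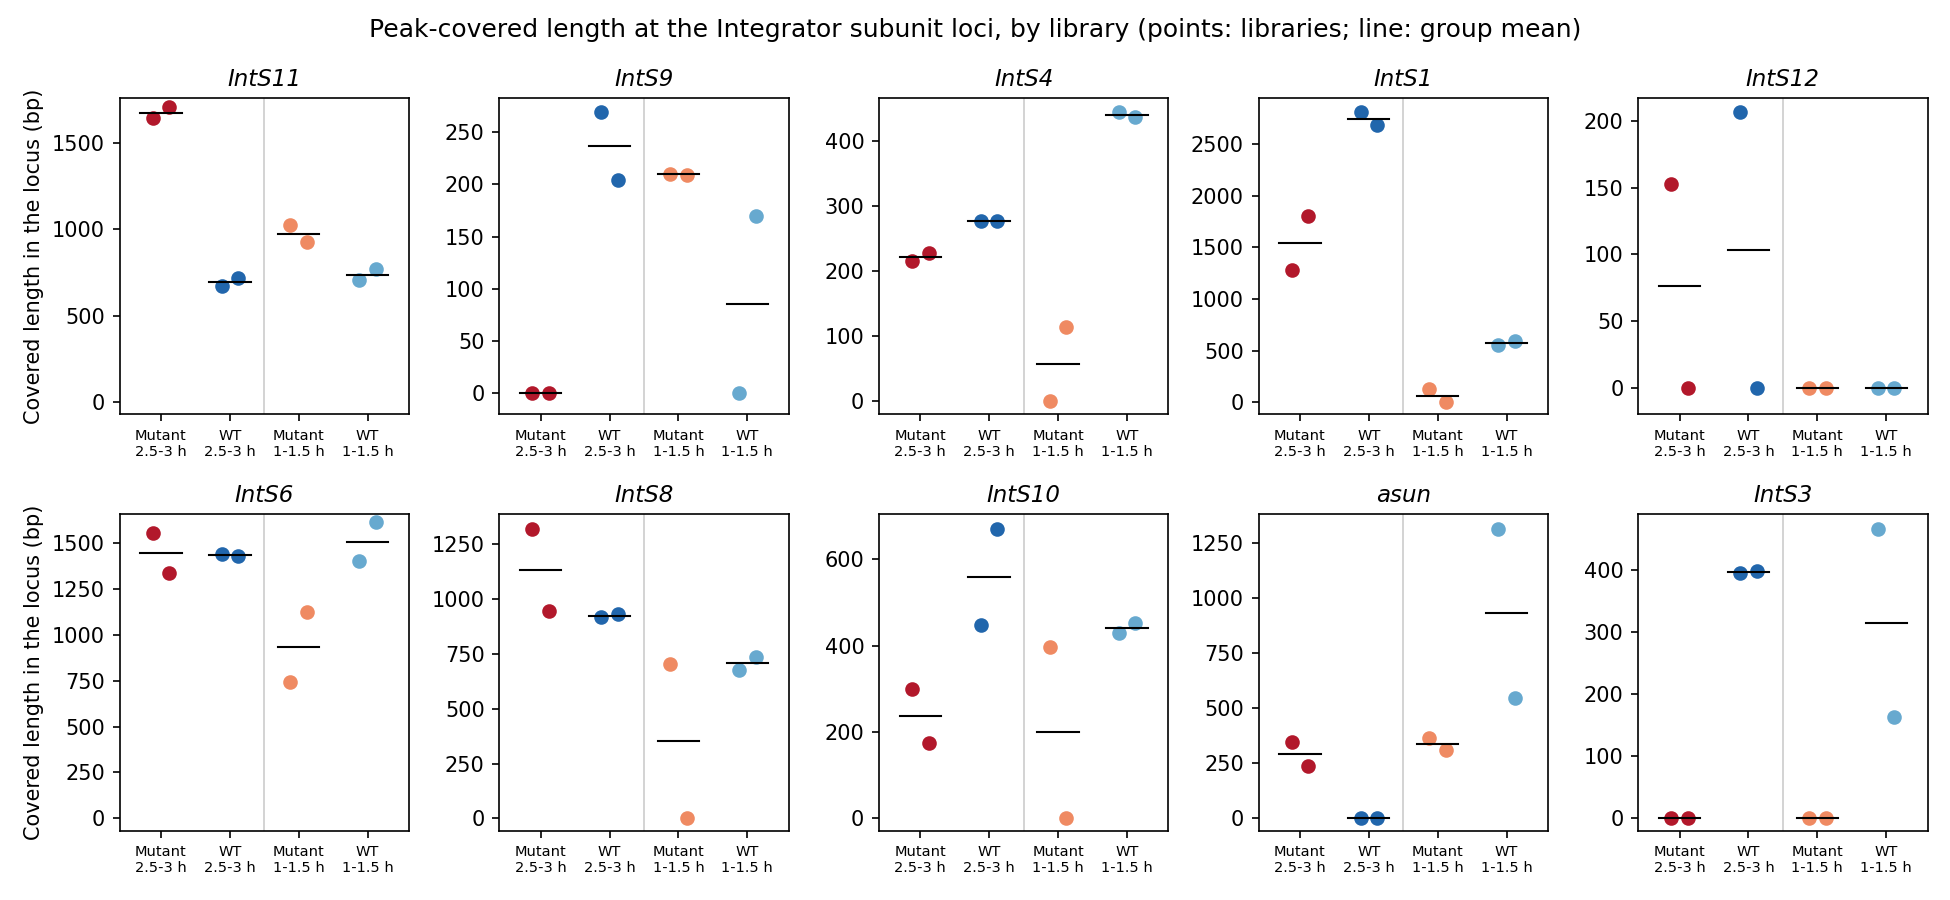
Covered length in bp at each of the 10 loci, with a panel per gene and its own scale. Points are libraries, lines are means of 2 libraries. Both mutant libraries lie below both WT libraries in both windows at IntS1, IntS3, IntS4 and IntS10.

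**Figure D3:**
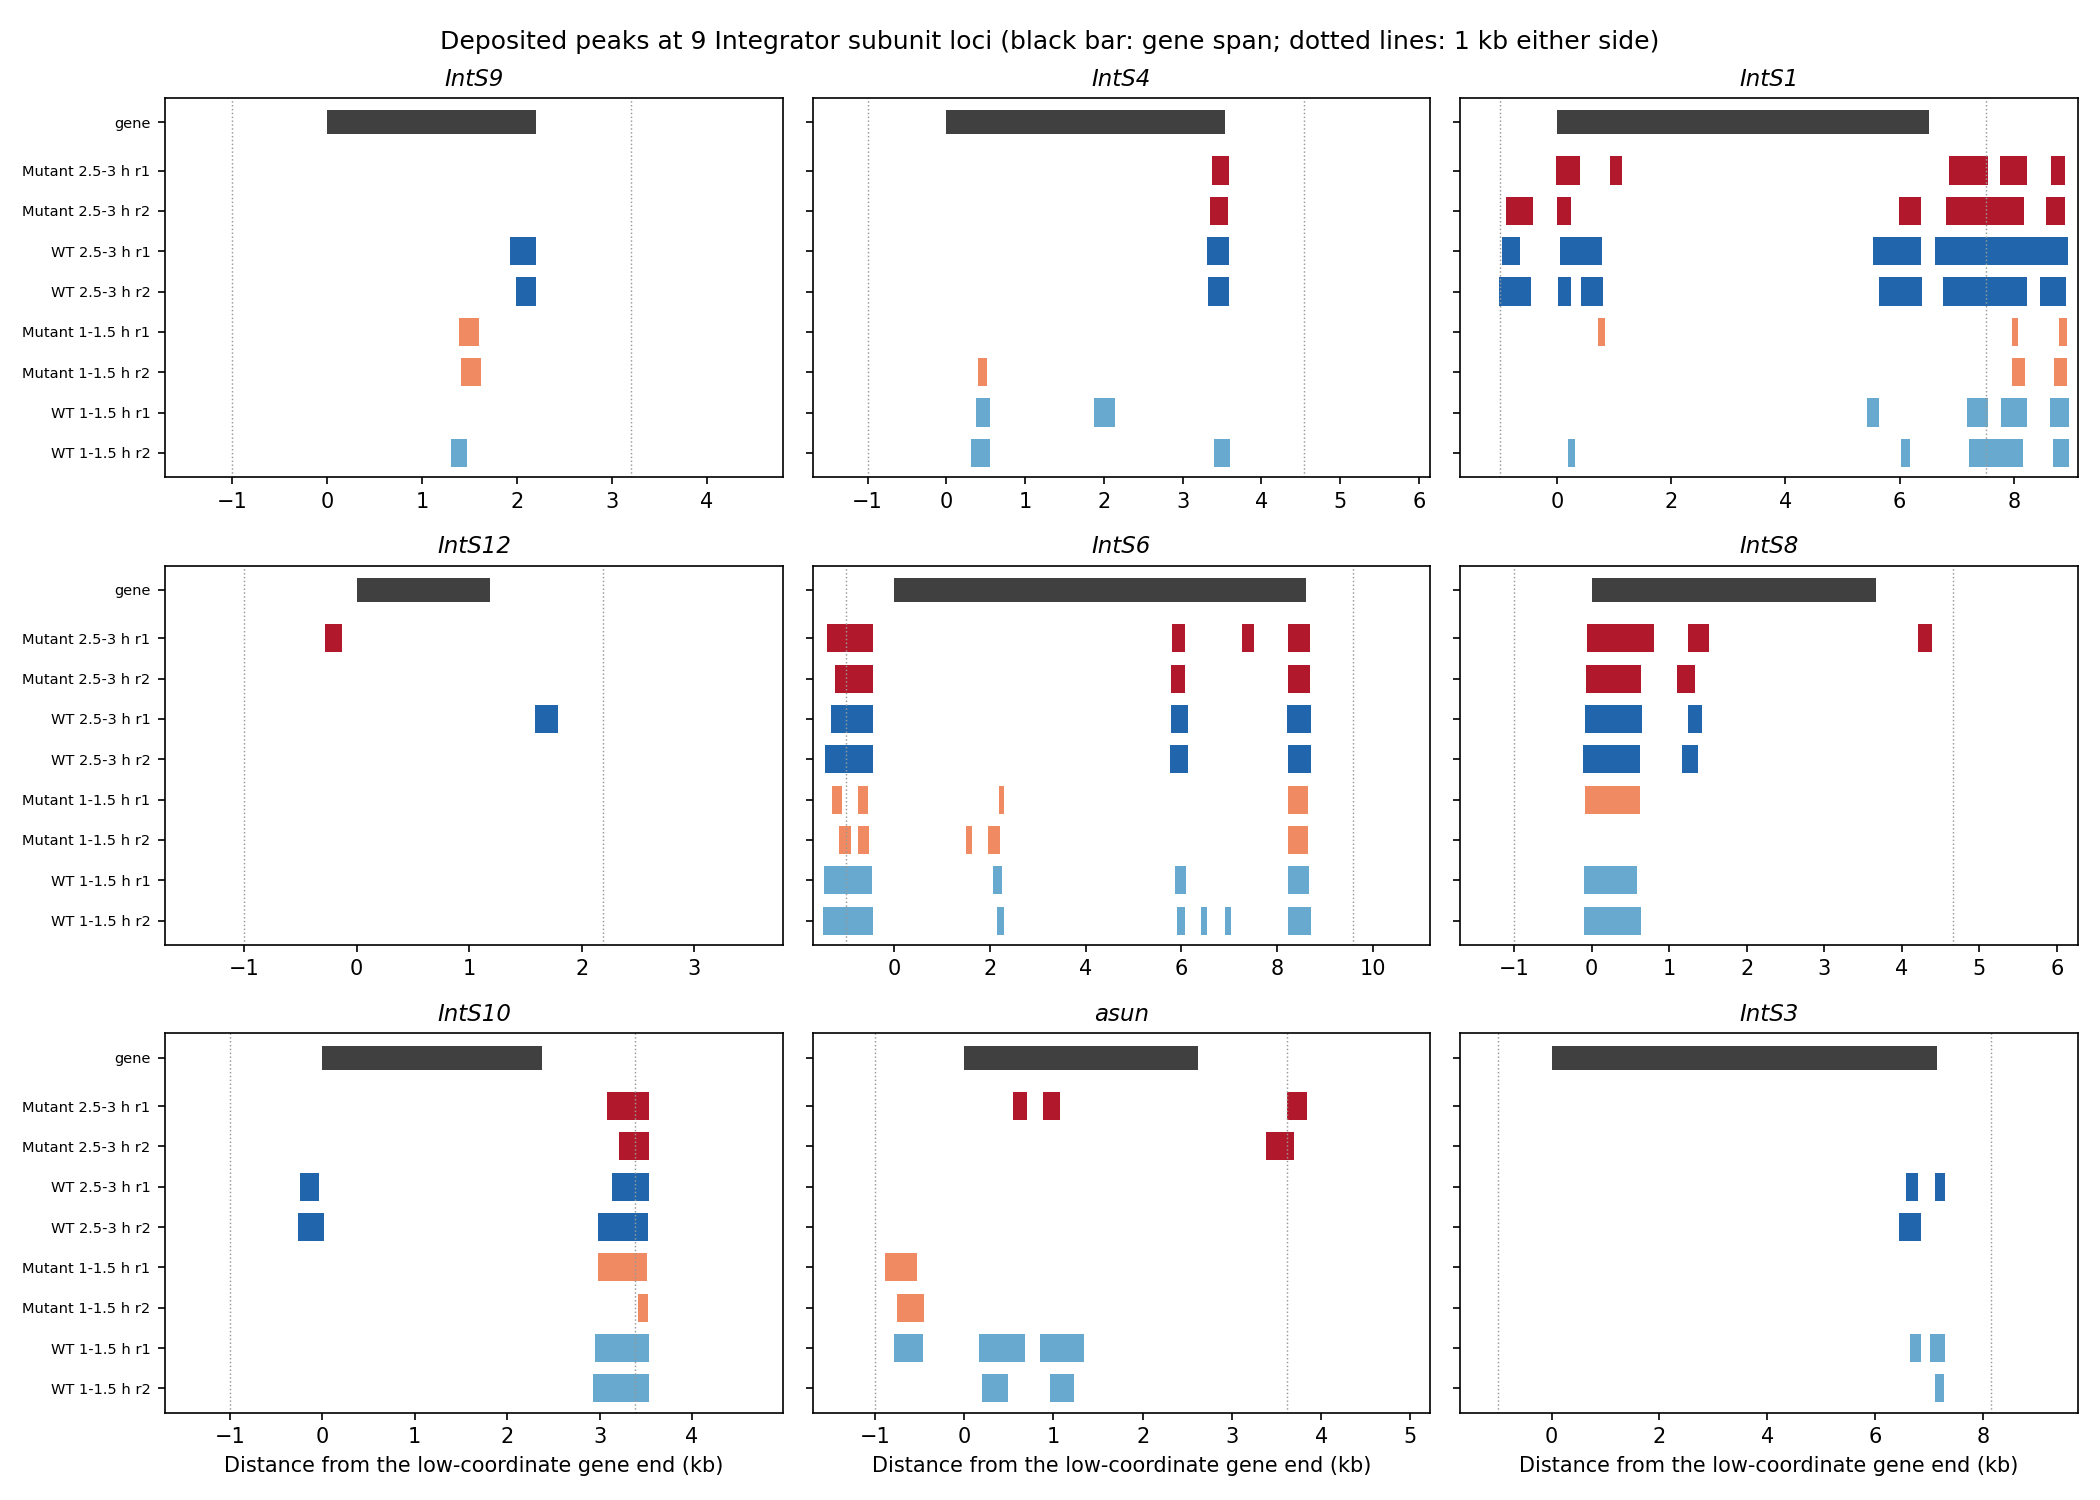
Peaks at the loci of the 9 other subunit genes, by distance in kb from the gene end with the lower coordinate, with libraries in rows (r1 and r2 are replicates), the gene as a black bar and dotted lines 1 kb outside it. The IntS9 peaks of the 2 windows lie at different places, and 1 IntS6 peak, at the high-coordinate end of the gene, is in all 8 libraries.

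IntS9 (gene 39763, 3L, 16103432 to 16105627), the inactive partner of IntS11, had opposite calls in the windows. It had no peak in either mutant library of 2.5 to 3 h, against 269 and 204 bp in the WT libraries. At 1 to 1.5 h it had 210 and 209 bp in the mutant libraries, against 0 and 170 bp in WT. The mutant was thus lower in the later and higher in the earlier window, a pair of calls shared by 0.282% of the 14546 genes with a peak in any library. Opposite calls in either order were made for 9.62% of these genes. Higher calls in the earlier window alone were made for 2.72% of genes with a peak there. With lengths scaled to the total covered length of each library they were made for 21.4%. The share of the pair of calls with scaled lengths is not given here. The peaks of the windows were not the same ones. Those of the later window ended at the last base of the gene (16105359 to 16105627), and those of the earlier window lay in its interior (16104738 to 16105053). All were within the gene span. With each library cut to the same number of peaks, the 15569 widest, the difference of the later window was -134.5 bp and the groups overlapped, so the opposite pair of calls was lost.

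IntS4 (gene 31793, X, 8555239 to 8558781), which joins IntS9 and IntS11 in the cleavage module, was lower in the mutant in both windows. It had 216 and 228 bp in mutant embryos of 2.5 to 3 h, against 277 bp in each WT library. In the earlier window it had 0 and 114 bp in the mutant, against 444 and 437 bp in WT. All of the later coverage was a single peak over the high-coordinate end of the gene (8558548 to 8558838), present in all 4 libraries. The WT libraries of the earlier window reached like totals with different peaks, since only replicate 2 had the end peak and only replicate 1 had a peak in mid-gene. Both had a peak near the low end, at 8555551 to 8555790, which mutant replicate 2 shared.

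IntS1 (gene 37840, 2R, 24037943 to 24044458), a scaffold subunit, had the most negative difference of the 9 other genes in the later window. Its locus was then covered over 1279 and 1803 bp in the mutant, against 2807 and 2686 bp in WT. The earlier window gave 125 and 0 bp in the mutant, against 549 and 591 bp in WT. Both mutant libraries were below both WT libraries in each window. Within the gene span alone the mutant had 621 and 618 bp at 2.5 to 3 h, against 1582 and 1375 bp in WT. At 1 to 1.5 h the span held 125 and 0 bp in the mutant, against 221 and 297 bp in WT. Part of the difference at 2.5 to 3 h was a region inside the high-coordinate end (24043367 to 24044332), where the mutant peaks measured 0 and 375 bp, against 843 and 754 bp in WT. The flank took in part of a wide region shared with the neighbouring gene tsr, which encodes the actin-severing protein cofilin. That region, called in all 8 libraries, was covered over 1387 and 1701 bp in mutant embryos of 2.5 to 3 h, against 2338 and 1935 bp in WT. At 1 to 1.5 h it was covered over 257 and 444 bp in the mutant, all beyond the 1 kb limit, against 1137 and 1212 bp in WT.

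IntS12 (gene 43227, 3R, 26863376 to 26864559), a small subunit that binds IntS1, had next to no peaks. Its locus held 153 and 0 bp in mutant embryos of 2.5 to 3 h, against 207 and 0 bp in WT. No library of the earlier window had a peak there. Each of the later peaks was in 1 library and lay outside the gene, overlapping the neighbours Lerp and ball. The gene span itself was without a peak in all 8 libraries.

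IntS6 (gene 31496, X, 5738663 to 5747254), of the phosphatase module, had 1552 and 1336 bp in mutant embryos of 2.5 to 3 h, against 1440 and 1429 bp in WT, and these overlapped. In the earlier window the mutant was lower, with 740 and 1122 bp, against 1399 and 1612 bp in WT. This covers part of a region that overlaps the neighbour Snx27 and was found in every library. The full length of that region in the earlier window was 418 and 480 bp in the mutant, against 1004 and 1053 bp in WT. Within the gene span alone the earlier window had 477 and 748 bp in the mutant, against 787 and 936 bp in WT. The peak over its high-coordinate end (5746861 to 5747364) was found in all 8 libraries, with widths of 480 and 477 bp in mutant embryos of 2.5 to 3 h, against 504 and 475 bp in WT. Its widths in the earlier window were 428 and 407 bp in the mutant, against 449 and 478 bp in WT. A region at 5744416 to 5744799 was in every library except those of the mutant in the earlier window. A region at 5740621 to 5740958 was called throughout the earlier window, in both genotypes, and in no library of the later one. With lengths scaled to the total covered length of each library, the difference of the earlier window turned to 417 bp and the groups overlapped, and with equal list lengths it was -139 bp and they overlapped as well.

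IntS8 (gene 36886, 2R, 16850437 to 16854104) also belongs to the phosphatase module. It had 1320 and 944 bp in mutant embryos of 2.5 to 3 h, against 916 and 933 bp in WT, so both mutant libraries were higher, replicate 2 by a small margin. The earlier window gave 703 and 0 bp in the mutant, against 677 and 736 bp in WT, which overlapped. A peak over its low-coordinate end (16850331 to 16851237) was called in every library but mutant replicate 2 of the earlier window, with widths from 677 to 860 bp in the others. An interior region (16851538 to 16851951) was called throughout the later window and in no library of the earlier one.

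IntS10 (gene 38444, 3L, 3806710 to 3809090), of the arm, was lower in the mutant in both windows, through peaks that lay almost wholly outside the gene. It had 299 and 174 bp in mutant embryos of 2.5 to 3 h, against 447 and 671 bp in WT. In the earlier window it had 398 and 0 bp in the mutant, against 430 and 453 bp in WT. The region that every library called began 547 bp beyond the gene and overlapped CG32262. In mutant replicate 2 of the earlier window it held a peak of 109 bp that lay beyond the 1 kb limit and so did not count. The region at the gene's own low end (3806452 to 3806724), which also overlaps CG32264 and ntc, was called at 205 and 273 bp in WT embryos of 2.5 to 3 h and in no other library. Within the gene span alone the groups overlapped in both windows. They also overlapped at 2.5 to 3 h with equal list lengths (-220.0 bp) and at 1 to 1.5 h with lengths scaled to equal library totals (-54.49 bp).

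The gene asun (gene 41971, 3R, 16264271 to 16266891), whose product sits in the same arm and is also known in Drosophila for its part in dynein localization during spermatogenesis, had the reverse pair of calls to IntS9. It had 345 and 238 bp in mutant embryos of 2.5 to 3 h, against 0 and 0 bp in WT. At 1 to 1.5 h it had 367 and 312 bp in the mutant, against 1317 and 548 bp in WT. Of all genes with a peak, 9.34% were likewise higher in the later and lower in the earlier window. Within the locus, only 5 bp was common to the mutant libraries of the later window, because of the 1 kb limit. Both had a peak in the region that overlaps Mst89B, where WT had none at either age. These peaks, 228 bp wide in replicate 1 and 310 bp in replicate 2, overlapped each other. That of replicate 1 lay almost wholly beyond the limit. Replicate 1 had 340 bp inside the gene, whereas replicate 2 had none there and owed its value to its Mst89B peak. The higher call therefore ended when the gene span was taken alone. Inside the gene, the mutant libraries of the earlier window had no peak, and their 367 and 312 bp lay in a region that overlaps the neighbour bor. WT embryos of that age had peaks of 508 and 285 bp (16264441 to 16264973) and of 486 and 263 bp (16265122 to 16265607), and the peaks of mutant replicate 1 of the later window, 154 and 186 bp wide, fell in these same regions. With lengths scaled to equal library totals the difference of the earlier window was -179.3 bp and the groups overlapped, which ended the opposite pair of calls.

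IntS3 (gene 3355010, 2R, 4235779 to 4242934), which in human cells also belongs to a complex that binds single-stranded DNA, had no peak in any of the 4 mutant libraries. The WT libraries had 396 and 399 bp at 2.5 to 3 h and 467 and 163 bp at 1 to 1.5 h. These peaks lay at the high-coordinate end of the gene, in a region at 4242227 to 4242625 and in another at 4242799 to 4243067, each called in 3 of 4 WT libraries. Among the 9 genes, only IntS3 had a peak in every WT library and in no mutant library. The share of all genes with that pattern was not computed, and 26.1% of all genes with a peak were lower in both windows. With equal list lengths the groups overlapped in both windows, at -199.5 bp in the later and -134.5 bp in the earlier one, and with peaks of at least 200 bp they overlapped in the earlier one.

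Over the 9 genes, mutant embryos of 2.5 to 3 h were lower at 5 of 9 loci (IntS1, IntS3, IntS4, IntS9 and IntS10), where 36.1% of all genes with a peak were lower. They were higher at 2 of 9 (IntS8 and asun), where 18.3% of all genes were. The median mutant minus WT difference was -55 bp over the 9 genes and -63.5 bp over the 13167 genes tested. In the earlier window the mutant was lower at 6 of the 8 loci with a peak (IntS1, IntS3, IntS4, IntS6, IntS10 and asun), where 69.2% of all genes were lower, so this count was close to the background. It was higher at 1 (IntS9), where 2.72% of all genes were. The median difference was -369.2 bp over the 8 genes and -325 bp over 13919 genes. IntS1, IntS3, IntS4 and IntS10 were lower in both windows, as were 26.1% of all genes, and 0 of the 9 were higher in both, against 1.46%.

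**Figure D4:**
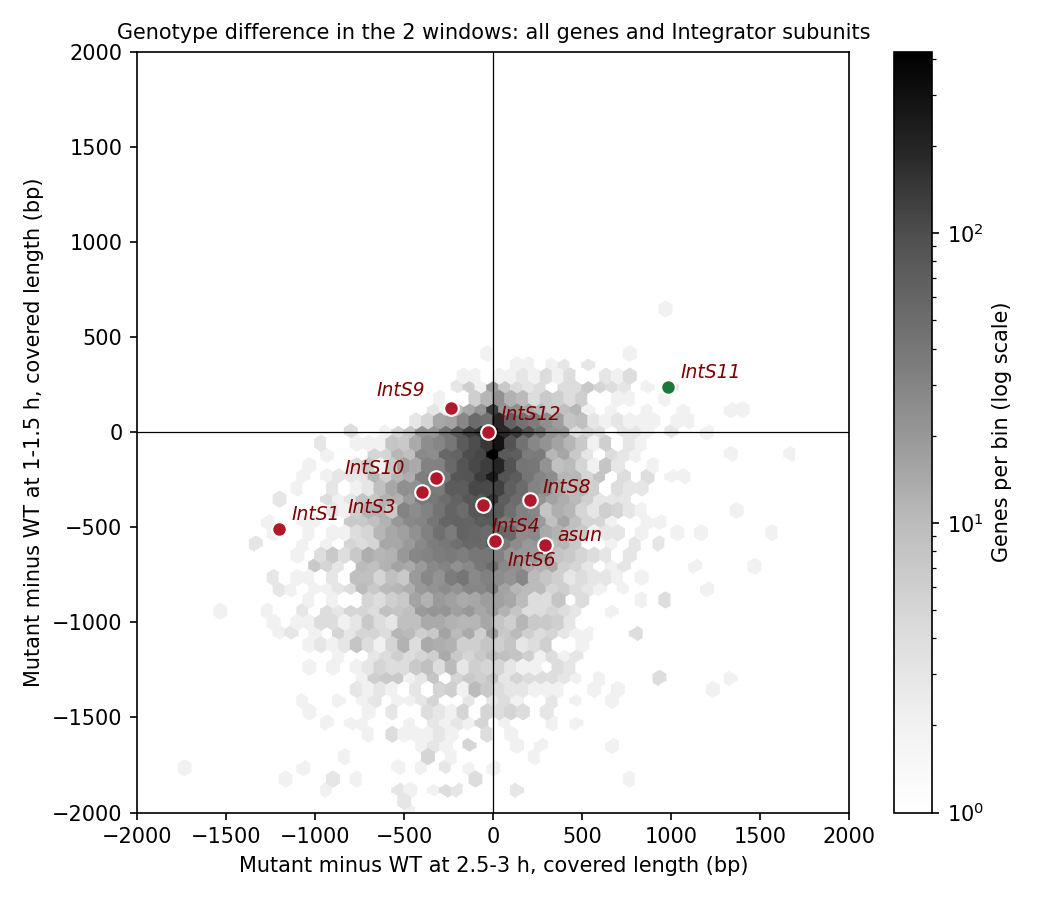
Mutant minus WT covered length in bp at 2.5 to 3 h (horizontal) against 1 to 1.5 h (vertical). Grey cells count genes on a log scale, with 357 genes outside the axes, red points are the 9 subunit genes and the green point is IntS11. The difference at IntS1 at 2.5 to 3 h, -1205.5 bp, is the most negative of the subunit genes, and IntS9 stands in the sparse upper left.

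The library totals moved with the counts of the earlier window, since its mutant libraries covered 4486 and 3712 kb over the whole genome, against 8913 and 8189 kb in WT. With the lengths scaled to equal totals, the mutant was lower at 3 loci at 1 to 1.5 h (IntS1, IntS3 and IntS4), against 29.2% of all genes, and higher at IntS9, against 21.4%. In the later window the scaled lengths gave the same 5 genes lower and the same 2 higher, against 30.4% and 21.5% of all genes. Summed over the 9 loci, peaks covered 5164 and 4723 bp in mutant embryos of 2.5 to 3 h, against 6759 and 6599 bp in WT, of which IntS1 gave 1279 and 1803 bp in the mutant, against 2807 and 2686 bp in WT. The sums of the earlier window were 2543 and 1757 bp in the mutant, against 5283 and 4710 bp in WT. As a share of all base pairs in peaks, the 9 loci held 0.062% and 0.0587% in mutant embryos of 2.5 to 3 h, against 0.0776% and 0.0788% in WT. The shares of the earlier window were closer, 0.0567% and 0.0473% in the mutant, against 0.0593% and 0.0575% in WT.

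Counted by regions rather than lengths, 3 of the 14 that both WT libraries of 2.5 to 3 h called at these 9 loci had no mutant peak, against 12.5% of all such regions. They were the end region of IntS9, the low-end region of IntS10 and a region of IntS3. In the other direction, 1 of the 10 that both mutant libraries called had no WT peak, against 13.1%. It was the region overlapping Mst89B near asun. In the earlier window, 5 of 12 had no mutant peak, against 27.1%, and these were in IntS1, IntS3, IntS6 and, with 2 regions, asun. Of the 7 that both mutant libraries then called, 0 had no WT peak, against 6.48%. Regions were counted whole, also where they ran beyond the 1 kb limit. In the earlier window the mutant peaks in the tsr region of IntS1 all lay beyond that limit. The same held for the peak of mutant replicate 2 in the CG32262 region of IntS10. Both regions were counted as called in both mutant libraries. How often regions over the whole genome were called in all 8 libraries, or in a single library, is not given here. Of the 31 regions at these loci 4 were called in all 8 libraries, and 9 in a single library. Some of the short ones, such as IntS6 regions of 133 and 141 bp called in WT replicate 2 of 1 to 1.5 h, were under the shortest peak listed in any library of 2.5 to 3 h (148 to 156 bp).

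Between windows, the loci of mutant embryos had higher covered length at 2.5 to 3 h than at 1 to 1.5 h at 4 of 8 genes with a peak (IntS1, IntS4, IntS6 and IntS8), against 64.4% of all genes, and lower at IntS9, against 3.83%. In WT embryos 3 of 9 were higher at 2.5 to 3 h (IntS1, IntS8 and IntS9), against 32.2%, and 2 were lower (IntS4 and asun), against 27.8%. IntS1 was higher in the later window in both genotypes. With equal totals, only IntS1 remained higher in the mutant, against 26.4% of all genes, while IntS9 and asun were lower, against 22.6%.

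Genotypes were also permuted within windows over all 8 libraries, for every gene with a peak. The smallest p of these 36 arrangements is 0.0556, so no gene could pass 0.05. IntS1, IntS3, IntS4 and IntS10 stood at that p, all lower in the mutant, as did 26.1% of all genes (exact two-sided permutation test, adjusted p = 0.202 over 14546 genes). A gene reaches that p with a lower value exactly when it is called lower in both windows, so this restates the earlier call. The mean difference over both windows was -856.5 bp at IntS1, -356 bp at IntS3, -282.5 bp at IntS10 and -219 bp at IntS4. The other 5 genes gave p from 0.222 (IntS6) to 1.0 (IntS12) in the same exact test. No gene in the genome had an unadjusted p under 0.05.

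The related protein-coding genes were the remaining Integrator subunits, PP2A subunits, cleavage and polyadenylation factors, and the factors that hold RNA polymerase II paused near promoters, with 24 matched. Of 23 with a peak in the later window, 9 were lower in the mutant and 0 higher, where 36.1% of all genes were lower and 18.3% higher. Of 24 in the earlier window, 22 were lower and 0 higher, where 69.2% of all genes were lower and 2.72% higher. The subunit genes IntS2 and defl (IntS7) were lower in both windows, with 1563 and 1395 bp in the mutant against 1604 and 1668 bp in WT for IntS2 at 2.5 to 3 h. Also lower in both were Cpsf73, the endonuclease of messenger RNA cleavage and a relative of IntS11, and Cpsf100, Cpsf160, Clp, CstF50, Slbp and Nelf-A. Over all genes with a peak, 26.1% were lower in both windows. Cpsf73 had 495 and 484 bp in the mutant, against 594 and 666 bp in WT, at 2.5 to 3 h. Neither PP2A gene (mts and Pp2A-29B) was called at 2.5 to 3 h.

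The snRNA genes had calls of both kinds. Integrator cuts the RNA ends of those that RNA polymerase II transcribes, whereas the U6, U6atac and 7SK genes are transcribed by RNA polymerase III. In the later window 16 of 27 with a peak were higher and 8 lower in the mutant, where 18.3% of all genes were higher and 36.1% lower. Of 29 in the earlier window, 6 were higher and 15 lower, where 2.72% of all genes were higher and 69.2% lower. Their median mutant minus WT difference was 133 bp in the later window, beside -63.5 bp over all genes, and -86 bp in the earlier window, beside -325 bp. Higher in both windows were snRNA:U5:34A, snRNA:U1:82Eb, snRNA:U1:95Cb, snRNA:U1:95Ca and snRNA:U2:14B. The snRNA:U1:82Eb locus of the mutant had 1290 and 1280 bp, against 558 and 552 bp in WT, at 2.5 to 3 h. Lower in both were snRNA:U2:38ABa, snRNA:U2:38ABb, snRNA:U1:95Cc, snRNA:7SKa, snRNA:U6:96Aa, snRNA:U6:96Ab and snRNA:U6:96Ac. Over all genes with a peak, 1.46% were higher and 26.1% lower in both windows. The snRNA genes occur in near-identical and partly clustered copies, so that neighbours share peaks and reads may be split between copies.

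Among 8845 protein-coding genes with a peak in at least 6 libraries, the covered lengths of Mtp, CG18048, pyr, tara and sqh ran closest to the sum over the 9 subunit genes, with Pearson correlations of 0.994 to 0.997 over 8 libraries. The total covered length of the libraries, which all these values share, correlated with the same sum at 0.919.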

How the data were processed

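The deposited files were peak lists, 1 per library, with 3 columns (chromosome, start and end) and no score. Peaks were therefore called per library. The submitters' processing notes name the dm6 build and, with no settings, MACS2 2.2.7.1, Bowtie2 2.2.5, Trimmomatic 0.39, deepTools 3.5.1 and SAMtools 1.18. Whether reads were shifted for the transposase or duplicates removed is not given in the sources used here. Depth is unknown, so no interval or detection limit was set. Positions are 1-based dm6. Gene spans came from the RefSeq table of the Release 6 assembly, which gives no strand or exons, so a gene end is named by its coordinate, and promoter motifs and sequences were not analysed here.

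Covered length per locus was computed with Python 3.11.15, NumPy 2.4.6 and pandas 2.3.3, for all 17807 genes. Regions were peaks merged at an overlap of at least 1 bp. Genes entered a comparison with a peak in at least 1 of its libraries. Code was tested on simulated data and against SciPy 1.17.1. P-values were adjusted by Benjamini-Hochberg over all genes. All 8 lists differed from each other. Named genes were the 10 members, genes overlapping their regions, the best correlated genes, and listed partners called alike in both windows; snRNA genes were all symbols so named, and of 25 listed partners IntS15 was not matched. The PP2A genes were named after their values were seen. Members and lists were chosen with earlier results of these data known.

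Alternatives were other flanks, peaks of at least 200 bp, equal list lengths (the 15569 widest peaks), lengths scaled to equal library totals, peaks joined across gaps of up to 100 bp, each library left out, and a replicate block.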

Additional observations from a re-analysis of the deposited data

Results flagged for a closer look

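Of the 9 subunit genes other than IntS11, IntS9 and asun had opposite genotype calls in the windows. IntS4 had opposite calls between windows in the genotypes, as did IntS9. At IntS9 the mutant was lower at 2.5 to 3 h (0 and 0 bp, against 269 and 204 bp in WT) and higher at 1 to 1.5 h (210 and 209 bp, against 0 and 170 bp in WT). The mutant minus WT difference of the later window less that of the earlier one was -361 bp (exact permutation test of 36 arrangements, p = 0.0556, the smallest it allows, adjusted p = 0.577). That p follows by construction from non-overlapping calls of opposite sign, and adds nothing to them. With equal list lengths the call of the later window was lost (-134.5 bp). At asun the same quantity was 884.5 bp (exact permutation p = 0.0556, adjusted p = 0.577), again a p fixed by the calls. The later value of mutant replicate 2 came from a peak in the region overlapping Mst89B. Replicate 1 had a peak there too, almost wholly beyond the 1 kb limit. The lower call at 1 to 1.5 h was lost with lengths scaled to equal library totals (-179.3 bp), and the higher call at 2.5 to 3 h in the gene span alone (170.0 bp). At IntS4 the mutant had higher covered length at 2.5 to 3 h than at 1 to 1.5 h (216 and 228 bp, against 0 and 114 bp) and WT had lower (277 and 277 bp, against 444 and 437 bp). That change in the mutant exceeded the change in WT by 328.5 bp (exact permutation p = 0.333, adjusted p = 0.667). The higher call in the mutant was lost with equal totals (86.4 bp). The lower call in WT was lost with 2 kb flanks (-90.5 bp) and with peaks of at least 200 bp (-75 bp), and turned to 25.5 bp higher with equal list lengths. Opposite genotype calls in the windows, as at IntS9 and asun, were made for 9.62% of all genes with a peak. The share with opposite calls between windows in the genotypes, as at IntS4, was not computed. Groups of 2 libraries are too small to test for a library that stands apart.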

How the results depend on the processing

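Counts over the 9 genes moved by more than 1.5 times under some alternatives. Within the gene span alone, 1 gene was higher in the mutant and 0 regions were gained at 2.5 to 3 h (2 and 1 with the flanks). With peaks of at least 200 bp, 2 genes were lower at 2.5 to 3 h than at 1 to 1.5 h in the mutant and 1 in WT, and at 1 to 1.5 h 2 regions were lost and 1 was gained in the mutant. With equal list lengths these 4 values were again 2, 1, 2 and 1, and in addition 2 genes were lower in the mutant at 2.5 to 3 h, 0 regions were lost there, and 2 genes stood at the smallest permutation p. With equal totals, 3 genes were lower in the mutant at 1 to 1.5 h, and between windows 2 were lower and 1 higher in the mutant. A replicate block, in which a call needs the same sign in both same-numbered pairs, gave 2 genes lower between windows in the mutant, and moved no other count by over 1.5 times. The numbers are not said to mark a shared batch, and same-numbered libraries deviated together hardly at all, with correlations of -0.03 at 2.5 to 3 h and 0.026 at 1 to 1.5 h.

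Leaving out each library in turn, regions lost in the mutant numbered 3 to 5 at 2.5 to 3 h and 6 to 8 at 1 to 1.5 h, and gained ones 1 to 7 at 2.5 to 3 h and 0 to 1 at 1 to 1.5 h. The 7 came without mutant replicate 2 of 2.5 to 3 h. Genes lower in the mutant numbered 5 to 6 at 2.5 to 3 h and 6 to 7 at 1 to 1.5 h, and higher ones 2 to 3 at 2.5 to 3 h and 1 each time at 1 to 1.5 h. Between windows 1 to 3 were lower and 4 to 5 higher in the mutant, and 2 to 3 lower and 4 to 5 higher in WT. From 3 to 5 stood at the smallest p. Fewer libraries make a call without overlap easier by construction.

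Among single genes, reversed differences were IntS11 at 1 to 1.5 h (-11.5 bp in the span alone and -397 bp with 2 kb flanks), IntS4 between windows in WT with equal list lengths (25.5 bp), IntS6 at 1 to 1.5 h with equal totals (417 bp), and, between windows in the mutant with equal totals, IntS6 (-423 bp) and IntS11 (-253 bp). The cause was not tested. Of the 27 calls over the 10 genes and 4 comparisons, 19 were kept with equal list lengths, 20 with equal totals, 22 in the span alone, 24 with peaks of at least 200 bp, 25 with 2 kb flanks and 27 with joined peaks. Depth is unknown, so a short peak missing from a library cannot be told from one under its limit.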
